A study of Glycine soja and Glycine max with 13 samples.

Results

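The acyl-ACP thioesterase genes of soybean were followed in developing seeds of 13 lines. They were taken by identifier, as 6 listed genes that carry the names FATB1A (Glyma.05G012300), FATB1B (Glyma.17G120400), FATB2A (Glyma.04G151600), FATB2B (Glyma.06G211300), FATA1A (Glyma.18G167300) and FATA1B (Glyma.08G349200). Of the 6, 5 had a row among the 43517 genes of the count table, and FATA1B was not analysed here. All 5 passed the filter on low counts that left 31420 genes for testing. The names belong to the listed identifiers and were not checked against an annotation, since none of the build behind the counts was used here, so no position, length or sequence is given.

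Seeds were collected 13 days after flowering from field-grown plants, and poly(A) RNA was sequenced with a stranded kit. The cultivated group was 6 lines of the crop, Glycine max (df12, df14, df17, df36, df3 and df43). The wild group was 7 lines of its wild progenitor, Glycine soja (ys1, ys16, ys17, ys23, ys26, ys29 and ys34). Each line is 1 sample, so the spread within a group is the spread between lines, and the labels give no treatment, plant number or batch. The title of the series asks which genes relate to seed weight, and the comparison it implies is that of cultivated with wild seeds.

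Acyl-ACP thioesterases end fatty acid synthesis in the plastid. They cut a finished acyl chain from its carrier protein, and the freed fatty acid leaves the plastid for membrane and oil synthesis. Enzymes of the FATA class act mainly on oleoyl-ACP, the monounsaturated product of stearoyl-ACP desaturase, and those of the FATB class prefer saturated chains, chiefly palmitoyl-ACP. The balance between them and the desaturases therefore helps to set how much palmitic acid a seed oil holds, and loss of FATB1A function is a known source of low-palmitate soybean oil.

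The lines held 12.7 M to 26.0 M counts (M, mega; median 16.6 M), and levels are given as CPM, counts per M of the TMM-scaled library. A count of 0 leaves room for up to 3 counts, which is 0.111 to 0.243 CPM on that scale and covers counting error only. The samples were whole seeds, so fewer cells of a type and less RNA per cell cannot be told apart. Lines of both species were counted on the same gene identifiers. Whether sequence differences between the species changed the counts of a gene was not tested. Seed filling differed widely between lines of both groups. A storage score, the mean log2 CPM of 8 measured identifiers known from the literature as glycinin and β-conglycinin genes, ran from 1.36 to 10.2 in cultivated lines and from 0.828 to 9.95 in wild lines. None of the 8 was at 0 in all lines, and their summed level ran from 107 to 38507 CPM in cultivated and from 30.0 to 44195 CPM in wild lines. The β-conglycinin identifiers Glyma.20G148400 and Glyma.20G148300 had nearly equal means, 2158 and 2165 CPM in cultivated and 3117 and 3128 CPM in wild lines. Whether the same reads were counted for both was not tested. The wild lines ys29 and ys34 had low scores, 2.69 and 0.828. The 8 most abundant features took 30.7% and 39.2% of their counts, where the other lines had 15.8% (df36) to 32.4% (df3). Scores were also low in df14 and ys16, at 1.36 and 2.42, where these features took 20.6% and 20.1%.

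No thioesterase gene passed the test between cultivated and wild seeds. FATB2A and FATB2B stood farthest apart between the groups, with fitted levels 1.53-fold and 1.87-fold higher in cultivated seeds, whereas the fitted folds of FATB1A, FATB1B and FATA1A were 1.13, 0.925 and 1.20. By the edgeR quasi-likelihood test with Benjamini-Hochberg adjustment over all 31420 genes, 0 of the 5 passed at 0.05, beside 14 of all genes, or 0.0446%. Before adjustment, 2 of the 5 and 18.9% of all genes had a p under 0.05. DESeq2 called 0 of the 5, beside 4.07% of all genes. With limma voom 0 of the 5 passed, beside only 12 of all 31420 genes. For none of the 5 did all lines of one group lie above all lines of the other, which was so for 1.1% of tested genes. The median fitted log2 fold change was 0.27 over the 5 and -0.015 over all tested genes.

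**Figure D1:**
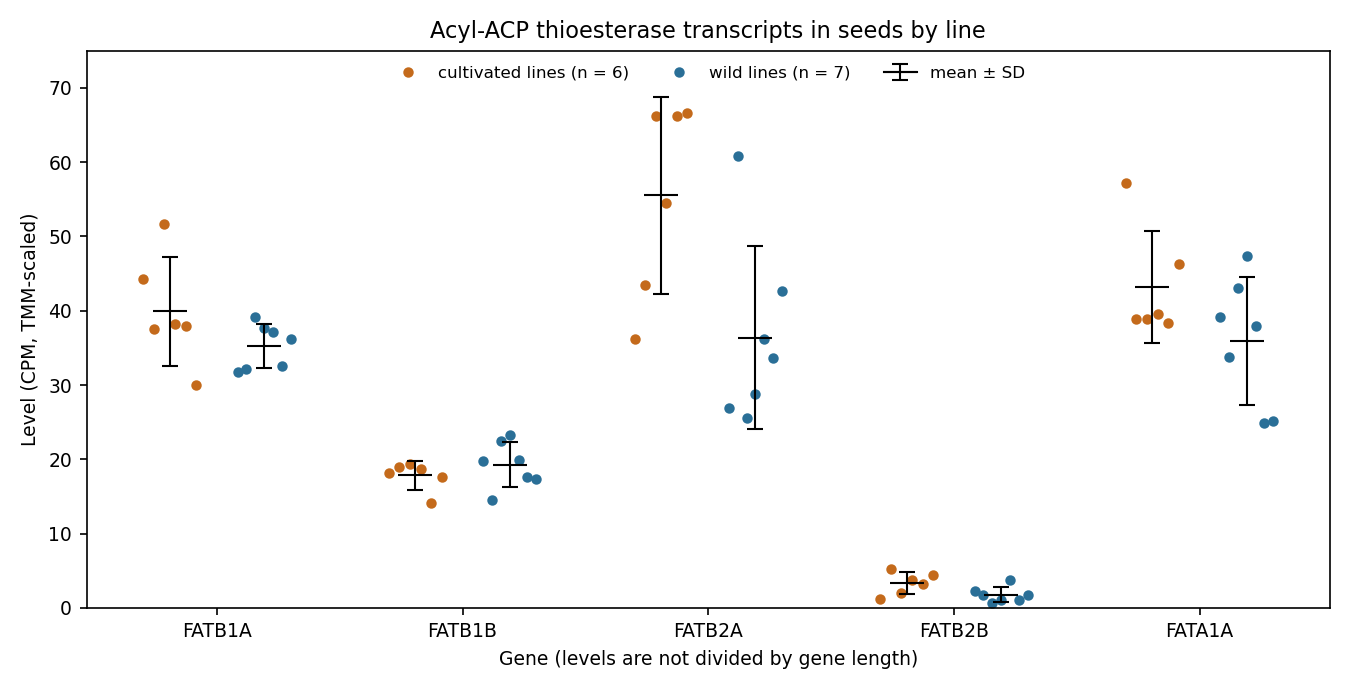
Levels (CPM, TMM-scaled, linear axis) of the 5 measured thioesterase genes in each cultivated (orange) and wild (blue) line, with the mean and SD of each group. The groups overlap for every gene, and for FATB2A 3 cultivated lines lie above the highest wild line, at 60.8 CPM.

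Among the FATB genes, FATB1A kept within a narrow range. Its lowest, median and highest levels were 30.0, 38.1 and 51.7 CPM in cultivated lines, and 31.8, 36.1 and 39.1 CPM in wild lines. The cultivated line df43 was the lowest of all 13 and df17 the highest, so the range of the wild lines lay inside that of the cultivated ones. Means were 39.9 ± 7.33 CPM (SD, n = 6) and 35.2 ± 2.996 CPM (SD, n = 7), and the log2 fold change of 0.18 (SE 0.134) had an edgeR adjusted p of 0.480. Its 95% interval reached from 0.930-fold to 1.38-fold. Over the 13 lines the SD of its log2 CPM was 0.209, and 9.26% had a lower one among the 10351 tested genes whose mean log2 CPM reached 4, which had a median SD of 0.380.

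FATB1B, the copy named as its partner, was as even. It had levels of 14.2, 18.4 and 19.3 CPM (lowest, median and highest) in cultivated lines and of 14.6, 19.8 and 23.3 CPM in wild lines. Every cultivated line lay below the wild median, and the lowest line of each group, df3 and ys17, stood at nearly the same level. The log2 fold change was -0.11 (SE 0.134, edgeR adjusted p = 0.683), with an interval from 0.759-fold to 1.13-fold. The SD of its log2 CPM over 13 lines was 0.203, and 8.35% of the same 10351 genes had a lower one.

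FATB2A varied more, and most cultivated lines were high. Its lowest, median and highest levels were 36.2, 60.4 and 66.6 CPM in cultivated lines, and 25.6, 33.7 and 60.8 CPM in wild lines. All 6 cultivated lines lay above the wild median, df17, df3 and df43 lay above every wild line, and 4 wild lines lay below every cultivated line. The overlap came from the cultivated lines df12, df14 and df36, at 36.2, 43.4 and 54.5 CPM, and the wild lines ys17, ys34 and ys26, at 60.8, 42.7 and 36.2 CPM. Means were 55.5 ± 13.2 CPM (SD, n = 6) and 36.4 ± 12.3 CPM (SD, n = 7), a 1.53-fold difference with an interval from 1.10-fold to 2.11-fold for this gene alone. The log2 fold change of 0.61 (SE 0.22) had an unadjusted p of 0.014 and an edgeR adjusted p of 0.177. Over all alternatives the adjusted p lay between 0.0924 with DESeq2 and 0.344, and without ys17 the log2 fold change was 0.78 (edgeR adjusted p = 0.137).

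FATB2B had few reads, 13 to 101 counts per line and 580 in all, and the widest relative spread of the 5. It stood at 1.21, 3.47 and 5.22 CPM (lowest, median and highest) in cultivated lines and at 0.693, 1.77 and 3.71 CPM in wild lines. The cultivated lines df14 and df43 lay above every wild line, and the wild lines ys1, ys29 and ys23 lay below every cultivated line. Means were 3.30 ± 1.50 CPM (SD, n = 6) and 1.76 ± 1.02 CPM (SD, n = 7). The log2 fold change of 0.90 (SE 0.408) had an edgeR adjusted p of 0.251, with an interval from 1.02-fold to 3.41-fold for this gene alone.

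Both genes read as seed coat markers, the SWEET10 sugar transporter identifiers Glyma.15G049200 and Glyma.08G183500, had higher means in cultivated lines. Their summed level ran from 587 to 1493 CPM, with a median of 783 CPM, in cultivated lines. In wild lines it ran from 240 to 685 CPM, with a median of 388 CPM. More seed coat and more transporter RNA per cell cannot be told apart from these levels. The part of the seed coat in the FATB2A and FATB2B levels was not tested.

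FATA1A, the only measured gene of the oleoyl-ACP class, had levels of 38.3, 39.3 and 57.3 CPM (lowest, median and highest) in cultivated lines and of 24.8, 38.0 and 47.4 CPM in wild lines. In 4 of the 6 cultivated lines it lay between 38.3 and 39.6 CPM, with df43 at 46.3 CPM and df12 at 57.3 CPM. The wild lines ys29 and ys34 were lowest of all, at 24.8 and 25.1 CPM, and were also the wild lines with a high share of counts in 8 features. The log2 fold change was 0.27 (SE 0.175, edgeR adjusted p = 0.423), with an interval from 0.929-fold to 1.56-fold. Without ys29 and ys34, left out together after their values were seen, it was 0.11 (edgeR adjusted p = 0.777), and without df12 it was 0.17 (edgeR adjusted p = 0.631).

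The balance of the copies within each FATB pair was compared as the share of the counts of both copies that fell on the A copy, a value that does not depend on library scaling. It is not a ratio of levels per length. Reads that match both copies may have been split, dropped or counted for both, by a counting step whose settings are unknown here. An effect of sequence differences between the species on the share was not tested. The FATB1A share averaged 68.9% over 6 cultivated lines (SD 3.97) and 64.8% over 7 wild lines (SD 2.72). By a two-sided exact permutation test p was 0.0554, or 0.111 adjusted over the 2 pairs that could be compared. It was highest in df3, at 72.8% of 644 counts (95% Wilson interval 69.3 to 76.1%), df17 and df12, and lowest in ys16, at 61.7% of 1393 counts (59.1 to 64.2%). The groups overlapped, since df43 stood at 63.0% among the cultivated lines and ys17 at 68.8% among the wild ones. Without df43 the difference rose from 4.07 to 5.24 percentage points and passed (two-sided exact permutation p of 0.0354 after adjustment over both pairs). It did not pass when any other single line was left out. By the same test the adjusted p then ran from 0.0693 without ys17 to 0.237 without df3. As a log2 ratio over all lines it did not pass either (permutation p of 0.108 after adjustment).

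The FATB2A share averaged 94.3% (SD 2.87) over the cultivated and 95.3% (SD 2.70) over the wild lines (two-sided exact permutation p of 0.547, also after adjustment). Lines within a group differed by more than the counting error. The share was 89.3% in df14 (95% Wilson interval 87.1 to 91.1%) and 97.1% in df17 (96.1 to 97.9%), both cultivated. Among wild lines it was 90.7% in ys26 (88.2 to 92.7%) and 97.4% in ys1 (95.5 to 98.5%). The difference between groups rested on df14, as it moved from -0.959 to 0.0498 percentage points without that line.

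**Figure D2:**
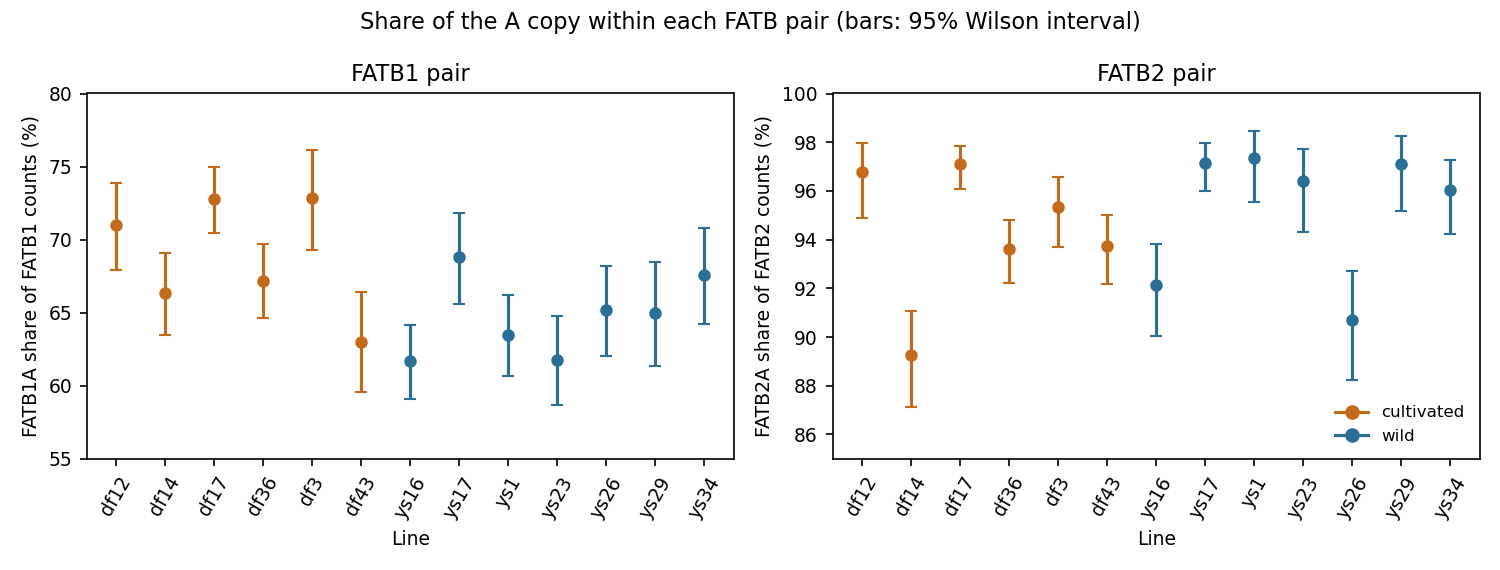
Percent of the counts of each FATB pair that fell on the A copy, by line, with 95% Wilson intervals that cover counting error only (orange, cultivated; blue, wild; neither axis starts at 0). The FATB1A share runs from 61.7% in ys16 to 72.8% in df3, and the FATB2A share is lowest in df14, at 89.3%, and ys26, at 90.7%.

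FATB2A counts relative to FATB1A counts ran from 0.817 in df12 to 2.22 in df43 among cultivated lines, with a median of 1.35, and from 0.654 in ys1 to 1.89 in ys17 among wild lines, with a median of 0.975. These ratios of counts are not corrected for length and were chosen after the values were seen, so they are given without a test. Of 10 relations between pairs of the 5 genes over 13 lines, none passed after adjustment. FATB1B and FATB2A ran most nearly opposite (log2 CPM, Pearson r = -0.692, permutation p = 0.00739, adjusted p = 0.0739; Spearman rho = -0.560, permutation p = 0.0497, adjusted p = 0.249; n = 13). Without df3 and ys17, the lines farthest from the median of FATB1B, r was -0.561. Within cultivated lines alone r was -0.351, and within wild lines -0.890. FATB2A and FATB2B had r = 0.574 (permutation p = 0.0422, adjusted p = 0.211) and rho = 0.610 (permutation p = 0.0296, adjusted p = 0.249). Without ys1 and ys16 r was 0.517, with 0.356 among the cultivated and 0.355 among the wild lines. FATB1A and FATB1B had r = 0.251 (permutation p = 0.409, adjusted p = 0.681) and rho = 0.280 (permutation p = 0.352, adjusted p = 0.677). Without df17 and df43 r was 0.241, with 0.297 among the cultivated and 0.693 among the wild lines.

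Each gene was also set beside the 26785 other tested genes whose mean log2 CPM reached 1, by Pearson's r of log2 CPM over the same 13 libraries, as a description. The genes most like FATB1A were Glyma.09G251100 (r = 0.889) and Glyma.07G045400 (0.864), and FATB1B stood at place 6463 in that order. Those most like FATB1B were Glyma.10G258000 (r = 0.918) and Glyma.17G223200 (0.886). For FATB2A they were Glyma.19G179200 (r = 0.924) and Glyma.11G123300 (0.881), with FATB2B at place 683 and FATB1B near the other end, at place 26649. For FATB2B they were Glyma.10G158300 (r = 0.913) and Glyma.17G012400 (0.872), and for FATA1A Glyma.15G197800 (r = 0.971) and Glyma.18G055800 (0.949). In none of the 5 orders was another thioesterase gene nearer than place 683.

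Along the storage score, with the group in the model, no thioesterase gene passed by edgeR. The slope is the log2 change of a gene per unit of score, where 1 unit is a doubling of the storage transcripts on the log mean. By edgeR 0 of the 5 passed over all genes, beside 1720 of 31412 genes, or 5.48%, and the median slope was 0.016 over the 5 and -0.00062 over all tested genes. The lines were not spread evenly along the score, as no wild line lay between 2.69 in ys29 and 7.94 in ys17. The gap held 4 cultivated lines, df36, df3, df43 and df17, with scores of 2.72, 4.38, 5.70 and 7.66.

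FATA1A had the highest slope, 0.063 (SE 0.022, unadjusted p = 0.0117, edgeR adjusted p = 0.119), which over the whole range of the score, 9.42 units, comes to 1.51-fold with a 95% interval from 1.11-fold to 2.06-fold. Its lowest levels were those of ys29 and ys34, with scores of 2.69 and 0.828, and its highest was that of df12, with the highest score, 10.2. Other lines did not follow this order, since ys16 and df14, with scores of 2.42 and 1.36, held 39.1 and 38.9 CPM, and ys17, with a score of 7.94, held 33.8 CPM. Without ys29 and ys34 the slope was 0.038 (edgeR adjusted p = 0.552). FATB2B had a slope of -0.087 (SE 0.0658, edgeR adjusted p = 0.538), which over the range of the score comes to 0.566-fold with a 95% interval from 0.226-fold to 1.42-fold. Its slope was -0.043 without df12, -0.15 without ys26 and -0.17 without ys29 and ys34, and did not pass in any of these. With limma voom FATA1A and FATB2B passed (slopes 0.067 and -0.16, limma adjusted p = 0.0243 and 0.0318), so 2 of the 5 were called by that tool, beside 14.3% of all genes. With DESeq2 FATA1A had an adjusted p of 0.0667 and FATB2B one of 0.471.

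FATB1A, FATB1B and FATB2A had slopes of 0.027, 0.016 and -0.0064 (edgeR adjusted p = 0.529, 0.758 and 0.958). Over the whole range of the score these come to 1.19-fold for FATB1A (95% interval 0.903 to 1.57), 1.11-fold for FATB1B (0.833 to 1.48) and 0.959-fold for FATB2A (0.576 to 1.60). FATB2A was lowest in ys1 and ys16, at 25.6 and 26.9 CPM, which had scores of 9.95 and 2.42, and highest in df43, with a score of 5.70. The slope did not differ between cultivated and wild lines past the threshold for any of the 5. By edgeR 0 of 31412 genes, or 0.0%, had such a difference. An unadjusted edgeR p under 0.05 was found for 1070 genes, or 3.41%, none of them a thioesterase. DESeq2 called 4 genes and limma voom 0. FATB2B had the difference farthest from 0, with a slope lower by 0.209 in cultivated lines (SE 0.125, edgeR adjusted p = 0.976).

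**Figure D3:**
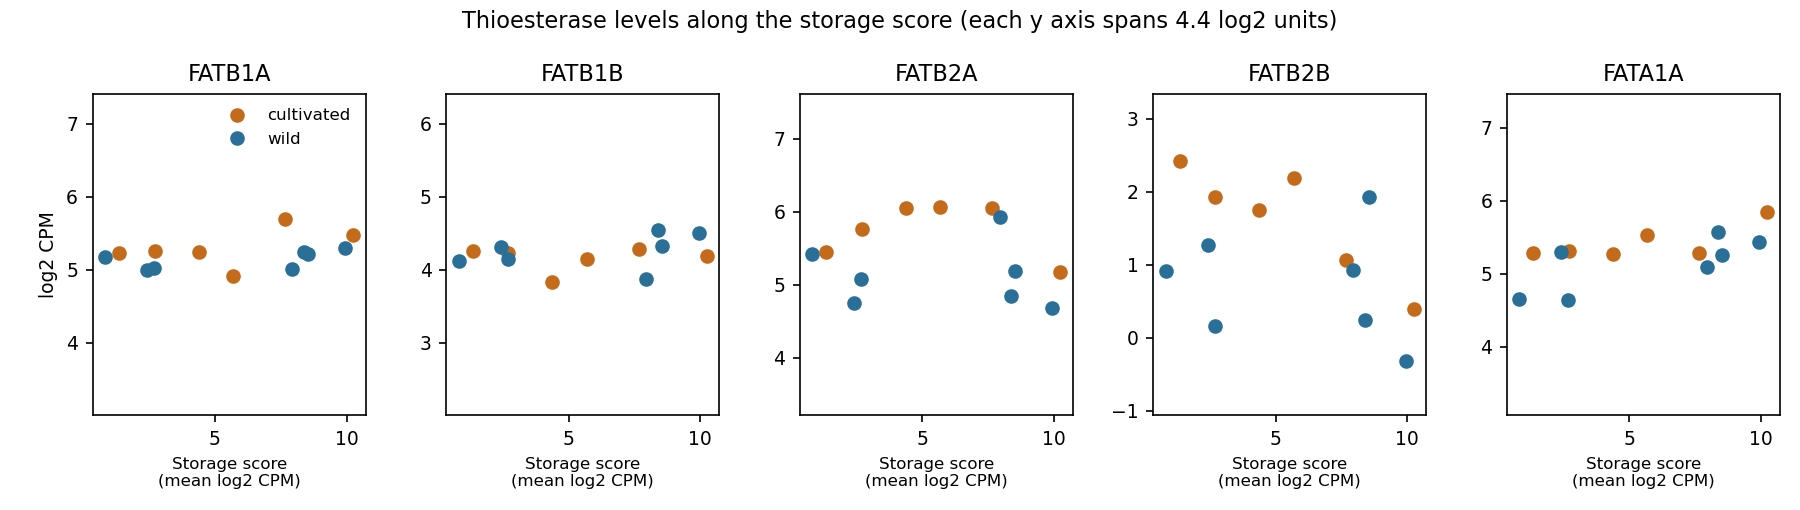
Log2 CPM of each thioesterase gene against the storage score of the same line (mean log2 CPM of 8 storage protein genes), with cultivated lines in orange and wild lines in blue, on y axes of equal span. FATB1A and FATB1B stay nearly level, FATA1A is lowest in the wild lines ys29 and ys34, and FATB2B is lowest in ys1, ys29, ys23 and df12, which have scores of 9.95, 2.69, 8.38 and 10.2.

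The other genes of the pathway were read from 19 identifiers listed from the literature for fatty acid and oil synthesis, of which 18 had a row and all 18 were tested. Their names were attached from the literature and were not checked against an annotation. Between cultivated and wild seeds 0 of the 18 passed edgeR, and 2, or 11.1%, had an unadjusted p under 0.05, beside the 18.9% of all genes. The median of their log2 fold changes was 0.17. Along the storage score 6 of the 18 rose and none fell, with a median slope of 0.082, beside 1128 genes that rose and 592 that fell among all 31412 (5.48% in either direction). The 6 were FAD2-1A and FAD2-1B (seed oleate desaturases), SACPD-A and SACPD-C (stearoyl-ACP desaturases, which make the substrate of FATA), DGAT1A (the last step of triacylglycerol synthesis) and GmOLEO1 (an oil body protein). Before adjustment, the edgeR p of the slope was under 0.05 for 12 of the 18, or 66.7%. It was so for 1 of the 5 thioesterase genes and for 18.7% of all genes.

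FAD2-1B (Glyma.20G111000) had a slope of 0.64 (SE 0.0613, edgeR adjusted p = 3.34e-05) and stood at 3.67 CPM in ys34, its lowest, and 906 CPM in df12, its highest. FAD2-1A (Glyma.10G278000) had a slope of 0.72 (SE 0.0678, edgeR adjusted p = 3.25e-05). SACPD-A (Glyma.07G207200) had one of 0.11 (SE 0.0283, edgeR adjusted p = 0.0400), SACPD-C (Glyma.14G121400) one of 0.26 (SE 0.038, edgeR adjusted p = 0.00144) and DGAT1A (Glyma.13G106100) one of 0.13 (SE 0.0226, edgeR adjusted p = 0.00326). GmOLEO1 (Glyma.20G196600) had the steepest of the 6, 0.98 (SE 0.188, edgeR adjusted p = 0.00741). Over the whole range of the score this comes to 606-fold, with a wide 95% interval from 44.0-fold to 8354-fold. Its level was 0 CPM in df14 and 0.0370 CPM in the lowest wild line, both under the 0.111 to 0.243 CPM of 3 counts. The 95% intervals reached up to 0.0689 for FATB1A, 0.0605 for FATB1B, 0.0718 for FATB2A and 0.0535 for FATB2B. That of SACPD-A, 0.0463 to 0.167, overlapped all of these, and that of DGAT1A began at 0.0859. The interval of FATA1A, 0.0164 to 0.110, overlapped those of SACPD-A and DGAT1A. The ketoacyl-ACP synthases lengthen the acyl chain before it is released. KASI (Glyma.08G084300) had a slope of 0.056, KASIIA (Glyma.17G047000) one of 0.061 and KASIIB (Glyma.13G112700) one of 0.018, and none of these passed (edgeR adjusted p = 0.198, 0.139 and 0.792). The difference between the slopes of any 2 genes was not tested.

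**Figure D4:**
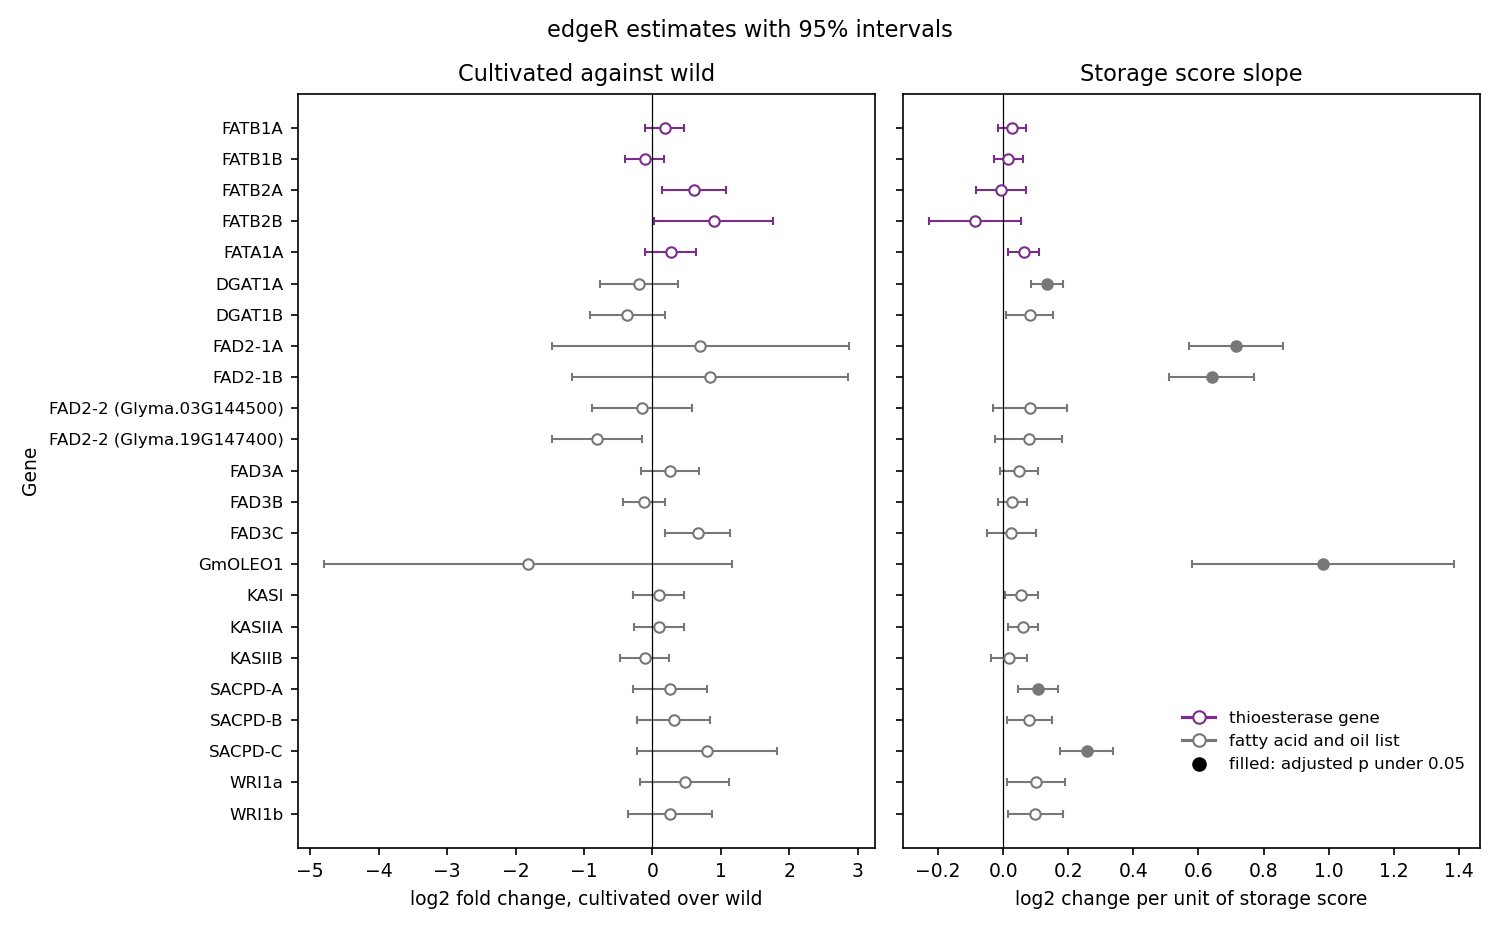
edgeR estimates with 95% intervals for the 5 thioesterase genes (purple) and the 18 measured genes of the fatty acid and oil list (grey), as log2 fold change of cultivated over wild (left) and as log2 change per unit of storage score (right); filled points have an adjusted p under 0.05 over all genes. No point is filled on the left, and on the right 6 list genes and no thioesterase gene are filled.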

How the data were processed

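The authors deposited 1 table of read counts per gene, in whole numbers whose sums differ between lines, so no normalization shows in them. Per the submitters' processing notes, the tools used were edgeR, SAMtools, TopHat2 and Trim Galore 0.3.3, with no role or order stated. Genome build, annotation, counting tool and the treatment of strand and of reads that match several genes: not given in the sources used here. Of 59365 RefSeq rows (Glycine soja assembly ASM419377v2), 0 matched an identifier of the table.

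All 13 columns were matched to lines by title and to groups by strain label. The lowest chi-square per degree of freedom between any 2 lines, over genes with at least 20 counts, was 21.8, so each line was kept as its own replicate. Library totals were 12.7 M to 26.0 M counts. Genes were filtered by the edgeR expression filter and scaled by TMM, and log2 CPM used a prior count of 2. Tests were quasi-likelihood F-tests of edgeR 4.0.16 in R 4.3.3 for the group, for the storage score beside the group, and for their interaction, with Benjamini-Hochberg adjustment at 0.05 over all tested genes. The 8 score genes were left out of counts of slopes. A standard error is the log2 estimate over the square root of F, and intervals are 95%. Fold changes are cultivated over wild. Shares were tested by exact permutation and relations by 100000 permutations in Python 3.11.15 (scipy 1.17.1, numpy 2.4.6), and figures were drawn with matplotlib 3.10.9. The tests were tried beforehand on simulated data, whose planted effects were larger than those fitted for the thioesterase genes. How often effects as small as theirs would be found was not tested.

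The members, the lists and the storage score were chosen with earlier results of these data known. The rule for named genes took all listed thioesterase genes, the fatty acid and oil list, and for each member the 2 genes of highest r. Alternatives were DESeq2 1.42.0, voom with quality weights (limma 3.58.1), scaling by upper-quartile or RLE factors, a filter that asked for a mean of 5 CPM and for 1 CPM in 6 lines, no filter, the 8 most abundant features left out, other forms of the score, a log2 ratio with 0.5 added to both counts in place of the share, and each line left out. Leaving out ys29 and ys34 together was added after the data were seen.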

Additional observations from a re-analysis of the deposited data

Results flagged for a closer look

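In 1 of 14 groups of lines, taken over the levels of the 5 thioesterase genes and the shares within the 2 FATB pairs, an extreme line exceeded the 95% limit of Dixon's test, as happens by chance in about 1 in 20 groups. That line was df3, whose FATB1B level of 14.2 CPM was lowest of the 6 cultivated lines, the other 5 lying between 17.6 and 19.3 CPM. Its gap was 0.667 of the range, against a limit of 0.625.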

How the results depend on the processing

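No thioesterase gene passed between cultivated and wild seeds under any alternative run, and the sign of each of these 5 fold changes was the same under all of them. The count of all genes called between the groups, 14, was 23 with upper-quartile factors, 25 with no filter, 97 with the storage score as a term, 22 without ys29 and ys34 together and 1279 with DESeq2. It ran from 9 (without ys16, and without ys1) to 32 (without df12) when each line was left out. The count of genes with a storage score slope, 1720, was 1140 with the stricter filter, 3036 with DESeq2, 4502 with limma voom and 464 without ys29 and ys34, and ran from 761 (without df12) to 1999 when each line was left out, with 954 without ys1 and 979 without ys34. The count of slope differences, 0, was 4 with DESeq2 and 0 whichever line was left out. The cause of these moves was not tested. The FATB2A slope, -0.0064, turned to 0.0054 without ys29 and ys34 and ran from -0.029 to 0.020 when each line was left out. Its slope difference, -0.014, was 0.028 with limma voom and ran from -0.072 to 0.096. The FATA1A slope difference, -0.016, was 0.039 without ys29 and ys34. The difference in FATB1A share ran from 3.28 to 5.24 percentage points and that in FATB2A share from -1.72 to 0.0498 when each line was left out. FATB2B had no value under the stricter filter, and the share within the FATA1 pair was not analysed here. No paired analysis was possible because the labels match no cultivated line to a wild line. FATB2B had as few as 13 counts in a line, and the other 4 genes at least 175.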
